A study of Mus musculus with 6 samples.

Results

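Retinoic acid is a small signal that cells make from vitamin A, and 9 genes for its synthesis, binding, breakdown and reception were followed in mouse embryoid bodies (EBs). The genes Aldh1a2, Stra6, Dhrs3, Crabp1, Crabp2, Cyp26a1, Rara, Rarb and Rarg were chosen by symbol, and all 9 were among the 52636 genes of the count table. EBs are aggregates of embryonic stem cells that start to differentiate when the factors that hold them in the pluripotent state are withdrawn. RNA was sequenced from 3 replicates of wild-type (WT) EBs of the mouse stem cell line E14 and 3 replicates of Tnfaip2-/- EBs. The Tnfaip2-/- line was derived from E14 by CRISPR-Cas9, is a single clone, and carries a frameshift with an early stop codon in the Tnfaip2 gene. Cells of both genotypes were kept on gelatin in serum replacement medium with leukemia inhibitory factor at 1000 U/ml, then aggregated for 3 days in hanging drops of 30 µl that held 300 cells according to the sample descriptions, which differ from the methods on drop size and cell number. The EBs were then plated on gelatin without this factor and harvested after 3 days of differentiation. According to the methods, the medium of these 3 days contained fetal bovine serum. No retinoic acid is mentioned among the additions to the media of either genotype, and the vitamin A content of the serum is not stated. The samples held between 21765931 and 23804489 counts. Each genotype is 1 line, so p-values measure only the spread between these samples, and not between independently derived clones.

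In cells, retinol dehydrogenases turn retinol into retinaldehyde, and retinaldehyde dehydrogenases such as ALDH1A2 turn that into retinoic acid. Cellular binding proteins carry retinoic acid either to the CYP26 enzymes, which break it down, or to the nucleus, where pairs of a retinoic acid receptor (RAR) and a retinoid X receptor (RXR) bind DNA and switch target genes on or off. In the early embryo this signal sets the order of Hox gene expression along the body axis and promotes neural fates, and in cultured stem cells it is a widely used agent of differentiation.

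RARs are known to bind direct repeats with a spacer of 5 bases, named DR5, and the sequences of the members that hold one are shown because these genes are classical targets of the receptors they belong with. Each repeat unit was AGGTCA or AGTTCA or GGGTCA or GGTTCA, and both strands were searched from 250 bases before to 50 bases after the start of each RefSeq gene (GRCm38.p6). A DR5 was present in 32 of 32851 windows (0.0974%). Of the 9 members, 8 had a window, and 2 of these held a DR5, Rarb and Cyp26a1. The capitals mark the repeat, which lies on the opposite strand in Cyp26a1.
Rarb, chr14:16575507-16575535, minus strand: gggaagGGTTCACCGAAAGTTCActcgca
Cyp26a1, chr19:37697698-37697797, plus strand: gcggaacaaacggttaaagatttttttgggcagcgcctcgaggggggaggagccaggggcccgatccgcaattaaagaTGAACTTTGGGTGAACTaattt
The Rarb repeat reads from 53 to 37 bases before the RefSeq start, and it falls in exon 1 and the 5′ untranslated region of 2 annotated transcripts. The Cyp26a1 repeat lies 32 to 16 bases before the start, upstream of every annotated exon of the gene. Read in its own direction, the Cyp26a1 repeat matched that of Rarb at 15 of 17 bases, and the differences from Rarb were G1A and G9C, counted from the 5′ end of the repeat. A match in letters does not show that a receptor was bound in these cells. As given further on, neither of these genes passed the test between the genotypes. Across all windows, 31 genes held a DR5, of which 7 were tested, 1 was higher (Prokr2) and 1 was lower (Syndig1) in Tnfaip2-/- EBs. Of all tested genes, 34.0% were higher and 33.7% were lower. Prokr2 and Syndig1 are named after their values were seen.

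The targeted gene had few counts in either genotype. Tnfaip2 had 7, 4, and 7 counts in WT samples, compared with 0, 2, and 2 in Tnfaip2-/- samples. Its pooled counts, scaled to depth, were 4.39 times higher in WT EBs, with an exact 95% interval for counting error from 1.44 to 17.8. The gene was too low for the expression filter and was not tested.

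Across all genes, 12084 of the 17849 tested genes (67.7%) were called by edgeR at an adjusted p of 0.05, 34.0% higher and 33.7% lower in Tnfaip2-/- EBs. All 9 members passed the expression filter. Aldh1a2 was higher in Tnfaip2-/- EBs, Crabp1, Crabp2, Rara and Rarg were lower, and Stra6, Dhrs3, Cyp26a1 and Rarb did not pass the threshold. Thus 5 of 9 members were called where 67.7% of all tested genes were, so that the number of called members does not set them apart. The CPM values (counts scaled to a common library size with edgeR's TMM factors) did not overlap between genotypes for the same 5 members, against 69.4% of all tested genes. The median log2 fold change was -0.13 over the members and 0.00 over all tested genes.

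**Figure D1:**
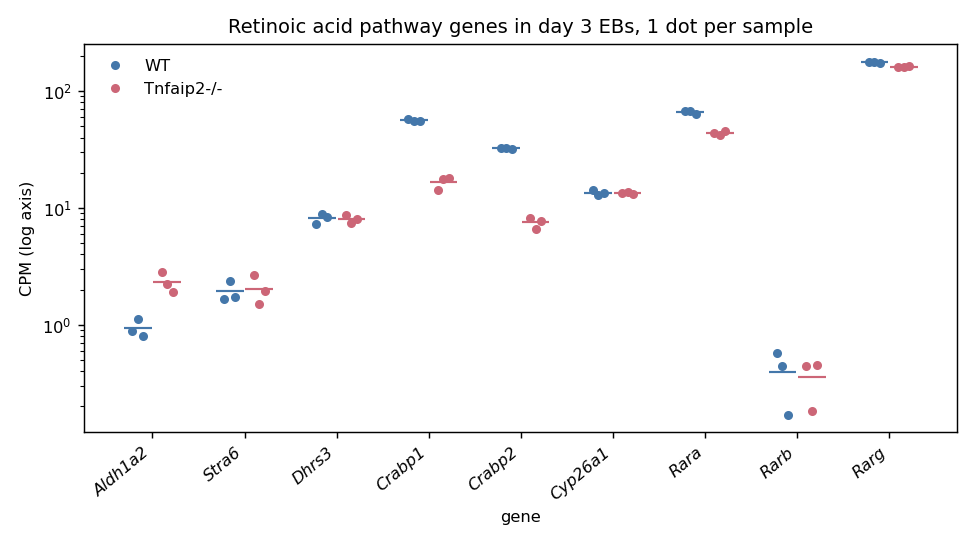
CPM of the 9 genes (logarithmic vertical axis) in each of the 3 WT samples (blue) and 3 Tnfaip2-/- samples (red), with a line at the mean of each group. Crabp1 and Crabp2 are lower in every Tnfaip2-/- sample, Aldh1a2 is higher, and the dots of Stra6, Dhrs3, Cyp26a1 and Rarb overlap.

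Aldh1a2 encodes the main retinaldehyde dehydrogenase of the early embryo, which catalyzes the last step of retinoic acid synthesis. Aldh1a2 (ENSMUSG00000013584, chromosome 9, 71215789 to 71296243, plus strand) had 20, 25, and 19 counts in WT samples, compared with 64, 49, and 42 in Tnfaip2-/- samples. Every Tnfaip2-/- sample was thus above every WT sample, at a low level in both. Its CPM rose from 0.936 ± 0.161 to 2.32 ± 0.466 (SD, n = 3), a 2.48-fold increase (log2 fold change 1.31, standard error 0.212, adjusted p = 5.5e-07, edgeR). Of all tested genes, 5.02% had a higher log2 fold change. In these bulk samples, more cells of a type and more RNA per cell cannot be told apart, and the same holds for each decrease. The other retinaldehyde dehydrogenases, Aldh1a1, Aldh1a3 and Aldh8a1, stayed between 0 and 6 counts in every sample and none passed the expression filter. Aldh1a1 and Aldh1a3 are named after their values were seen. The genes with the pattern over the 6 samples most like that of Aldh1a2, among 15710 candidates, were Fermt3, Socs1 and Nacc2. Their distances to Aldh1a2, taken over centred log2(CPM + 0.5) values, were 0.179, 0.201 and 0.21.

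The step before is the conversion of retinol to retinaldehyde. Of 16 genes listed for the interconversion of retinol and retinaldehyde, 7 were tested. Of these, 3 were lower and 0 higher in Tnfaip2-/- EBs (median log2 fold change -0.17), against 33.7% and 34.0% of all tested genes. Among the 9 genes too low to be tested, Rdh1 went from 0, 1, and 1 to 5, 8, and 6 counts, Adh4 from 1, 2, and 2 to 9, 11, and 5, and Adh7 from 0, 1, and 1 to 1, 8, and 3, all named after their values were seen. With DESeq2, 2 genes of this list were called higher, and without an expression filter 3 were. Dhrs4, which encodes a reductase of retinaldehyde, fell from 19.9 ± 1.11 to 11.4 ± 0.232 CPM (SD, n = 3; log2 fold change -0.80, adjusted p = 2.52e-14, edgeR). Rdh11, which encodes a retinol dehydrogenase of the endoplasmic reticulum, fell from 36.8 ± 0.782 to 22.3 ± 0.801 CPM (SD, n = 3; log2 fold change -0.72, adjusted p = 7.2e-17, edgeR). The decrease of Rdh13 was smaller (log2 fold change -0.17, adjusted p = 0.0395, edgeR), and its call was lost with DESeq2 (adjusted p = 0.171) and in several other settings. Rdh10, named after its values were seen because it encodes the main retinol dehydrogenase of the embryo, was at 6.57 ± 0.468 CPM in WT and 6.50 ± 0.320 CPM in Tnfaip2-/- EBs (SD, n = 3). The 95% interval of its log2 fold change ran from -0.22 to 0.19. Dhrs3 encodes an enzyme that returns retinaldehyde to retinol and so limits synthesis. Dhrs3 had 165, 197, and 195 counts in WT samples, compared with 196, 163, and 179 in Tnfaip2-/- samples, and the groups overlapped. Its log2 fold change was -0.01 with a 95% interval from -0.20 to 0.17 (adjusted p = 0.91, edgeR), which corresponds to fold changes from 0.87 to 1.13.

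Genes for the uptake and storage of retinol moved in both directions. Stra6, which encodes the membrane receptor that takes up retinol from its carrier in blood, had 38, 53, and 41 counts in WT samples, compared with 60, 33, and 43 in Tnfaip2-/- samples. These counts overlapped, and the 95% interval of the log2 fold change, from -0.31 to 0.47, corresponds to fold changes from 0.808 to 1.38 (adjusted p = 0.727, edgeR). Of the 6 listed genes of uptake and storage, 4 were tested, 2 were higher and 2 lower. The shares over all tested genes were 34.0% and 33.7%. Rbp4, the carrier of retinol in blood, rose from 2.58 ± 0.586 to 4.75 ± 0.349 CPM (SD, n = 3; log2 fold change 0.88, adjusted p = 5.44e-07, edgeR). Rbp7, a cellular retinol carrier, rose less (log2 fold change 0.65, adjusted p = 0.00197, edgeR). Stra6l, named after its values were seen, was lower (log2 fold change -1.05, adjusted p = 0.0093, edgeR) at 14, 15, and 18 against 4, 8, and 10 counts. This call was lost without Tnfaip2-/- replicate 1 (adjusted p = 0.0801) and with DESeq2 (adjusted p = 0.103). Rbp2 had 0 counts in every sample.

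**Figure D2:**
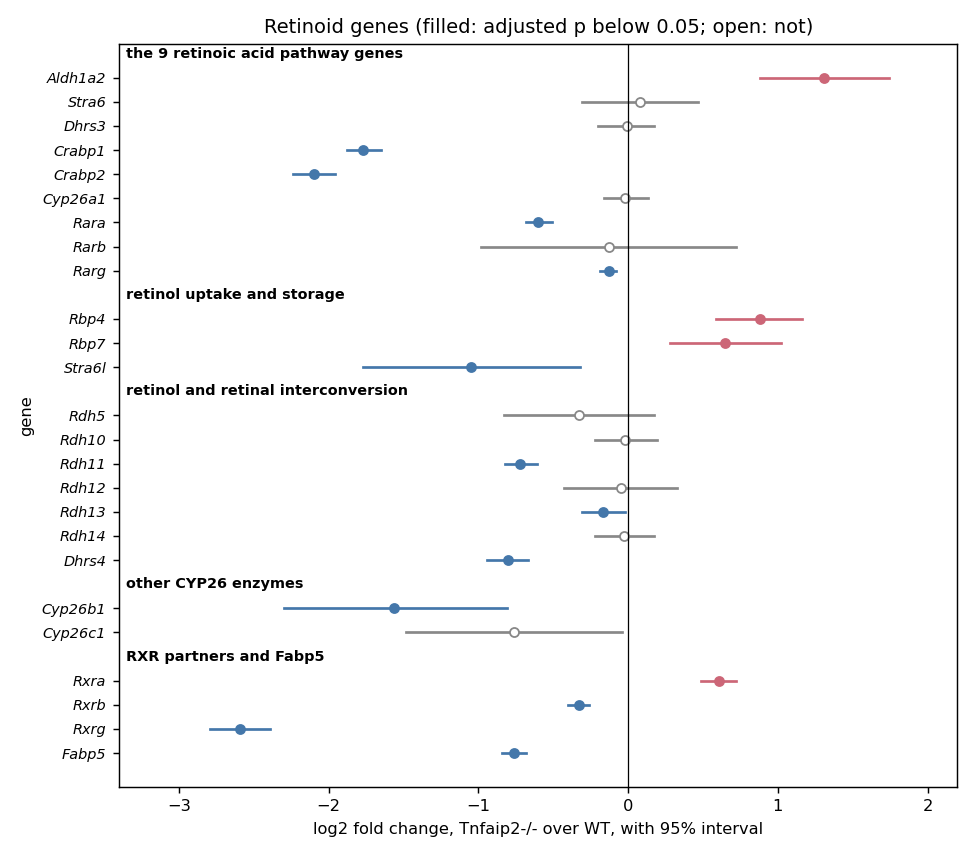
Log2 fold change of Tnfaip2-/- over WT EBs (horizontal axis) for the 9 genes and for tested genes of 4 retinoid lists, with bars for the 95% interval, which is not adjusted for the number of genes. Filled symbols (red higher, blue lower) passed an adjusted p of 0.05, open grey symbols did not; Rxrg lies farthest to the left at -2.59 and Aldh1a2 farthest to the right at 1.31.

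The genes of both cellular retinoic acid binding proteins were reduced. Crabp1, whose protein binds retinoic acid in the cytoplasm and is tied to its breakdown, lies on the plus strand of chromosome 9 (ENSMUSG00000032291, 54764748 to 54773110). It had 57.8, 54.9, and 55.8 CPM in WT samples, compared with 14.1, 17.5, and 17.9 in Tnfaip2-/- samples. Crabp2, whose protein delivers retinoic acid to RARs in the nucleus, lies on the plus strand of chromosome 3 (ENSMUSG00000004885, 87948666 to 87953376). It had 32.9, 32.5, and 32.1 CPM in WT samples, compared with 8.27, 6.67, and 7.71 in Tnfaip2-/- samples. For both genes the genotypes were far apart compared with the spread within each. Crabp1 was 3.4-fold lower in Tnfaip2-/- EBs (log2 fold change -1.77, standard error 0.056, adjusted p = 3.63e-30, edgeR), and 1.45% of all tested genes had a lower log2 fold change. Crabp2 was 4.3-fold lower (log2 fold change -2.10, standard error 0.0687, adjusted p = 1.19e-29, edgeR), and 1.01% of all tested genes were lower than that. Levels of different genes can be compared only per length of exon, and on that scale Crabp1 was the highest of the 9 members in WT EBs, at 70.0 ± 1.87 CPM per kb (SD, n = 3). In Tnfaip2-/- EBs it was at 20.6 ± 2.59 CPM per kb, below Rarg at 37.9 ± 0.469 CPM per kb.

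The ratio of the binding proteins was compared within each sample, which makes it independent of library scaling. The log2 ratio of Crabp1 to Crabp2, per kb, was 1.54, 1.48, and 1.52 in WT samples, compared with 1.49, 2.12, and 1.94 in Tnfaip2-/- samples. The mean was 1.51 ± 0.03 against 1.85 ± 0.32 (SD, n = 3), and an exact two-sided permutation test gave p = 0.3, where 0.1 is the smallest value that 3 against 3 samples allow. The higher spread in Tnfaip2-/- EBs came with an overlap of the groups, since replicate 1 lay among the WT values. The difference in mean log2 ratio, 0.34 with all samples, was 0.52 without Tnfaip2-/- replicate 1 and 0.20 without Tnfaip2-/- replicate 2, so its size depends on single samples. Fabp5 encodes a fatty acid binding protein that can also carry retinoic acid, to another nuclear receptor. It fell from 80.7 ± 0.585 to 47.7 ± 0.985 CPM (SD, n = 3; log2 fold change -0.76, adjusted p = 1.16e-22, edgeR). Of 51-base windows in the Fabp5 exons, 5.29% also occur in other genes, and reads there could have been lost or misassigned. The genes closest to Crabp2 in pattern were Pcdh18, Frzb and Meis2, at distances of 0.198, 0.207 and 0.212.

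Cyp26a1 encodes the principal retinoic acid hydroxylase of the early embryo and is itself a target of RARs, with the DR5 shown above. Cyp26a1 (ENSMUSG00000024987, chromosome 19, 37697798 to 37701536, plus strand) had 320, 289, and 316 counts in WT samples, compared with 304, 297, and 291 in Tnfaip2-/- samples. The groups overlapped at 13.5 ± 0.608 and 13.4 ± 0.221 CPM (SD, n = 3). The log2 fold change was -0.02 with a 95% interval from -0.16 to 0.13 (adjusted p = 0.86, edgeR), which corresponds to fold changes from 0.896 to 1.09. The genes of the related enzymes had far fewer counts, and both are named after their values were seen. Cyp26b1 had 13, 20, and 19 counts in WT samples, compared with 5, 7, and 5 in Tnfaip2-/- samples, and was called lower (log2 fold change -1.56, adjusted p = 0.00025, edgeR). Cyp26c1, the neighbor of Cyp26a1 on chromosome 19 (37685581 to 37693398), had 16, 12, and 14 against 6, 11, and 7 counts. Its log2 fold change of -0.76 did not pass the threshold (adjusted p = 0.0562, edgeR), but did so without Tnfaip2-/- replicate 2.

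Of the RARs, Rara and Rarg were lower and Rarb was close to absent in both genotypes. Rara (ENSMUSG00000037992, chromosome 11, 98927818 to 98974942, plus strand) had 67.8, 67.8, and 63.8 CPM in WT samples, compared with 43.7, 42.5, and 45.6 in Tnfaip2-/- samples. All Tnfaip2-/- samples were below all WT samples, a 1.51-fold decrease (log2 fold change -0.60, standard error 0.0411, adjusted p = 1.88e-17, edgeR). Rarg (ENSMUSG00000001288, chromosome 15, 102234938 to 102257517, minus strand) had 178, 179, and 174 CPM in WT samples, compared with 160.4, 159.9, and 163.6 in Tnfaip2-/- samples. This difference was also larger than the spread, but only 1.1-fold (log2 fold change -0.13, standard error 0.0279, adjusted p = 4.6e-05, edgeR). Rarb (ENSMUSG00000017491, chromosome 14, 16430839 to 16819156, minus strand) had 13, 10, and 4 counts in WT samples, compared with 10, 4, and 10 in Tnfaip2-/- samples. At this depth the 95% interval of its fold change ran from 0.506 to 1.65 (adjusted p = 0.796, edgeR). Top2b overlaps 34.1% of the Rarb exon bases on the opposite strand. Since the library kit does not mark strand, reads there could have been lost or misassigned.

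**Figure D3:**
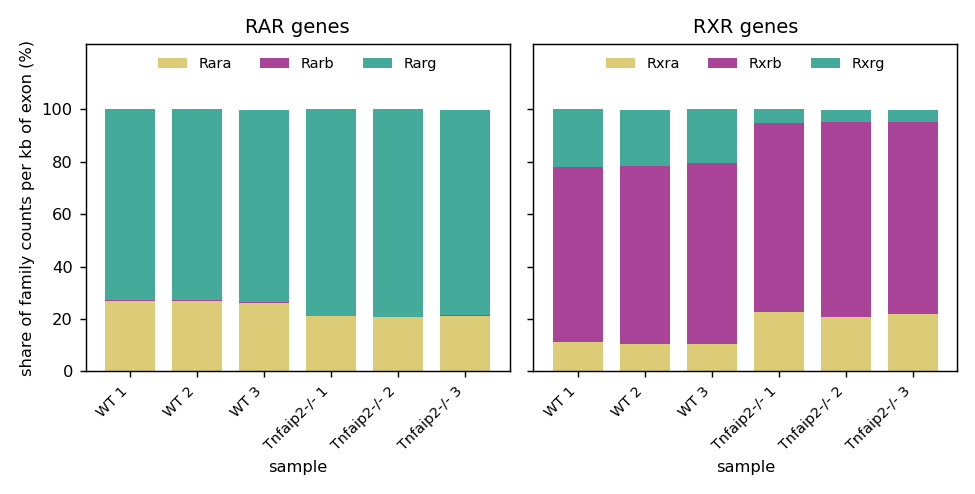
Share (%) of each gene in the counts per kb of exon of the RAR family (left) and of the RXR family (right), with a bar for each of the 6 samples. Rarg makes up 73.1% of the RAR bar on average in WT and 78.9% in Tnfaip2-/- EBs, Rarb is hardly visible, and the Rxrg part of the RXR bar goes from 21.4% to 4.8%.

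The makeup of each receptor family was compared as shares of counts per kb of exon within a sample. Rara made up 27.0%, 27.0%, and 26.3% of the RAR counts in WT samples, compared with 21.0%, 20.6%, and 21.3% in Tnfaip2-/- samples. Rarg made up the rest almost entirely, with 73.1% ± 0.452 in WT and 78.9% ± 0.44 in Tnfaip2-/- EBs (SD, n = 3), while Rarb stayed at or below 0.19% in every sample. The shares of Rara and Rarg did not overlap between genotypes, and the exact two-sided permutation test gave p = 0.1 for both, the smallest value it can give. For Rarb, the exact two-sided permutation p was 0.7.

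The RXRs, the obligate partners of RARs on DNA, changed in both directions. Rxrg had 371, 364, and 368 counts in WT samples, compared with 67, 54, and 57 in Tnfaip2-/- samples, a 6.03-fold decrease (log2 fold change -2.59, standard error 0.0994, adjusted p = 6.21e-27, edgeR). In the opposite direction, Rxra rose from 18.9 ± 0.655 to 28.8 ± 1.54 CPM (SD, n = 3; log2 fold change 0.61, adjusted p = 6.22e-13, edgeR). Rxrb fell from 88.5 ± 2.39 to 70.3 ± 0.502 CPM (SD, n = 3; log2 fold change -0.33, adjusted p = 1.6e-11, edgeR). Of the 4 genes listed as RXRs and Fabp5, 1 was thus higher and 3 were lower, against 34.0% and 33.7% of all tested genes. The share of Rxrg in the RXR counts per kb went from 21.4% ± 0.729 to 4.8% ± 0.412 (SD, n = 3). That of Rxra went from 10.6% ± 0.458 to 21.9% ± 0.924 (SD, n = 3). That of Rxrb went from 68.0% ± 1.10 to 73.3% ± 1.29 per kb (SD, n = 3), but without division by exon length its mean difference was -2.53 percentage points in place of 5.35. The exact two-sided permutation p was 0.1 for each of the 3 RXR genes.

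Coregulators of nuclear receptors, which carry out repression or activation once a receptor is bound, moved in both directions. All 17 listed genes were tested, 6 were higher and 8 lower, and the median log2 fold change was -0.08. Over all tested genes, 34.0% were higher and 33.7% lower. The largest changes were decreases of Zfp423, whose product is needed for the response to retinoic acid in neuroblastoma cells (log2 fold change -0.69), and of the acetyltransferase Kat2b (-0.58), the arginine methyltransferase Carm1 (-0.56) and the corepressor subunit Tbl1xr1 (-0.47). Adjusted p-values for these genes were 1.6e-17, 1.51e-14, 1.51e-20 and 2.3e-16 (edgeR). Of the Carm1 exon bases, 21.1% overlap the gene Yipf2 on the opposite strand, which leaves its counts uncertain. Against a fold change of 1.5, 1 of the 17 genes was lower and 0 were higher. Of all 17849 tested genes, 2798 passed the same test.

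Genes known to respond to retinoic acid outside the Hox clusters were split. All 11 listed genes were tested, 3 were higher and 5 lower (median log2 fold change -0.30), against 34.0% and 33.7% of all tested genes. Stra8, a gene named for its stimulation by retinoic acid and required for entry into meiosis, had 117, 126, and 116 counts in WT samples, compared with 2381, 2509, and 2553 in Tnfaip2-/- samples. It rose 21.3-fold (log2 fold change 4.41, standard error 0.0598, adjusted p = 4.52e-45, edgeR). The other genes called higher, Tgm2 (log2 fold change 0.56, adjusted p = 3.08e-05, edgeR) and Foxa1 (log2 fold change 1.94, adjusted p = 1.11e-08, edgeR), are named after their values were seen. Of 51-base windows in the Tgm2 exons, 18.6% are shared with other genes. Gm20412 and Rprd1b overlap 13.7% and 8.03% of the Tgm2 exon bases on the opposite strand. Meis2, a homeobox partner of Hox proteins, fell from 19.3 ± 0.385 to 4.54 ± 0.890 CPM (SD, n = 3; log2 fold change -2.08, adjusted p = 7.09e-25, edgeR). Nr2f1, an orphan nuclear receptor, had 29, 31, and 35 counts in WT samples, compared with 2, 4, and 3 in Tnfaip2-/- samples (log2 fold change -3.31, adjusted p = 4.82e-11, edgeR). Cdx1, a homeobox gene upstream of Hox genes, had 35, 43, and 44 counts in WT samples, compared with 0, 2, and 3 in Tnfaip2-/- samples. Its pooled counts were 23.8 times higher in WT EBs, with an exact 95% interval for counting error from 9.92 to 74.6. Cyp26a1, described above, stood at a fold change of 0.99 in the same samples. Whether the activity of RARs differed between the genotypes was not tested.

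The 3′ Hox genes, the first of their clusters to respond to retinoic acid, were mostly lower in Tnfaip2-/- EBs. Of 15 listed genes, 7 were tested, 6 were lower and 0 higher (median log2 fold change -2.27), while 33.7% of all tested genes were lower. Hoxb1, a hindbrain gene with retinoic acid response elements nearby, had 129, 111, and 127 counts in WT samples, compared with 7, 6, and 9 in Tnfaip2-/- samples (log2 fold change -4.00, standard error 0.212, adjusted p = 1.51e-21, edgeR). Hoxa5 followed with 101, 102, and 102 against 14, 24, and 19 counts (log2 fold change -2.37, adjusted p = 6.27e-16, edgeR). Hoxa2, Hoxa3 and Hoxa4 had log2 fold changes of -2.27, -1.21 and -1.31, with adjusted p-values of 9.42e-12, 4.71e-08 and 2.63e-05 (edgeR). In these genes, 12.7%, 24.2% and 13.3% of 51-base exon windows are shared with other genes, and exons of other genes of the cluster overlap each of them. Hoxb2, named after its values were seen, had 21, 20, and 20 counts in WT samples, compared with 1, 0, and 1 in Tnfaip2-/- samples, a pooled ratio of 29.7 with an exact 95% interval from 7.88 to 251. Of its windows, 25.9% are shared with other genes, and Hoxb3os overlaps 27.3% of its exon bases on the opposite strand. Hoxd4 had 0 counts in every sample.

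**Figure D4:**
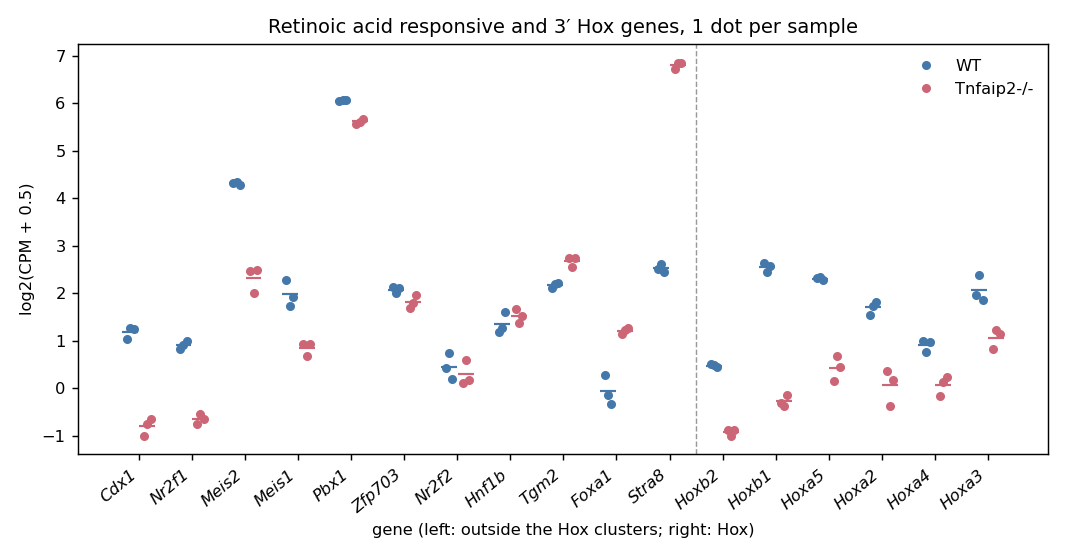
Log2(CPM + 0.5) of the tested genes that respond to retinoic acid outside the Hox clusters (left of the dashed line) and of tested 3′ Hox genes (right), with 1 dot for each WT (blue) and Tnfaip2-/- (red) sample and a line at the mean of the 3 log2 values. Stra8 rises from 5.24 to 111 CPM on average and Hoxb1 falls from 5.35 to 0.329 CPM.

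Markers of cell types that could be present in EBs differed between the genotypes too, and their values stand beside those of the retinoid genes. For each marker list below, the shares to compare with are those over all tested genes, 34.0% higher and 33.7% lower. All 5 neuroectoderm markers were lower in Tnfaip2-/- EBs, and their summed level was 114, 114, and 106 CPM in WT samples, compared with 50.2, 49.5, and 49.6 in Tnfaip2-/- samples. Sox1 was the highest of them, also per kb (log2 fold change -1.61, adjusted p = 2.3e-31, edgeR), and none was at 0. All 6 primitive streak markers were lower, with summed levels of 91.2, 91.9, and 89.8 against 21.4, 18.5, and 22.2 CPM. T, the gene of Brachyury, went from 774, 732, and 866 counts to 5, 3, and 1. Of the 7 paraxial mesoderm markers, 2 were tested and both were called lower, with summed levels of 84.5, 81.5, and 80.0 against 72.6, 74.5, and 79.3 CPM. Nearly all of this sum was Tcf15 (log2 fold change -0.10, adjusted p = 0.0137, edgeR). The calls of these genes are weak, since 0 of the 7 were called without WT replicate 1 or without Tnfaip2-/- replicate 1, and with DESeq2 the adjusted p was 0.0512 for Tcf15 and 0.196 for Tbx6. DESeq2 still called 2 genes of the list lower, and 4 were called lower without an expression filter. Among the untested genes, Msgn1 went from 9, 8, and 3 counts to 0, 0, and 0 and Meox1 from 9, 8, and 5 to 0, 1, and 1, both named after their values were seen.

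Of the 11 markers of primitive and visceral endoderm, 2 were higher and 7 lower, with summed levels of 139, 138, and 135 against 120.5, 118, and 119.5 CPM. The number of higher genes was 1 with DESeq2, without WT replicate 3 and without Tnfaip2-/- replicate 3. Apoa1 (log2 fold change -2.59), Ttr (-1.95), Foxa2 (-1.16) and Sox7 (0.64) changed most among those with at least 1 CPM. Of the 5 trophoblast markers, 3 were tested, 2 were higher and 1 was lower. Their sum went from 25.2, 22.7, and 23.8 to 173.8, 170.6, and 173.6 CPM, of which nearly all was Tfap2c (log2 fold change 2.98, adjusted p = 2.39e-45, edgeR), while Elf5 stayed at or below 3 counts in every sample. Cdx2 went the other way, from 42, 37, and 28 counts to 1, 2, and 0, a pooled ratio of 34.8 with an exact 95% interval for counting error from 11.6 to 171. Of the 9 naive pluripotency markers, 6 were higher and 3 lower, and of the 5 formative or primed markers, 4 were lower. The largest changes of naive markers were those of Dppa3 (log2 fold change 2.67), Klf4 (-1.49), Klf2 (0.98) and Zfp42 (0.90), and Dnmt3a changed most among the formative or primed markers (-2.12). Of the 6 fibroblast markers, 4 were tested, 1 was higher and 1 lower, with a sum of 12.5, 12.8, and 12.3 against 11.5, 11.4, and 11.9 CPM. With DESeq2, 0 of the fibroblast markers were higher and 2 lower, and without an expression filter 3 were lower. Of the 5 blood and endothelial markers, 3 were tested, 1 was higher and 2 lower, and the sum, mostly Pecam1, was 27.0, 26.4, and 26.1 against 30.5, 34.5, and 35.7 CPM. Kdr went the other way, from 34, 38, and 32 counts to 5, 6, and 3 (log2 fold change -2.82, adjusted p = 1.69e-10, edgeR). The part of these cell types in the differences of the retinoid genes was not tested.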

How the data were processed

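RNA of 3 WT and 3 Tnfaip2-/- EB samples was sequenced with an unstranded library kit. The authors aligned reads to GRCm38 and deposited raw counts per gene. The submitters' processing notes name TopHat2 2.1.0 and featureCounts 1.5.0. How strand was treated in counting is unknown here. From these counts, genotypes were compared with edgeR 4.0.16 in R 4.3.3 (TMM normalization, default expression filter with a minimum count of 10 and total of 15, robust quasi-likelihood F test, Benjamini-Hochberg adjustment over all 17849 tested genes, threshold 0.05). Standard errors were derived from the F statistic and are approximate. Intervals of fold changes are 95% intervals, and those of pooled counts cover counting error only. Exon lengths, positions and symbols came from the GENCODE annotation of GRCm38, and each of the 9 members matched 1 gene ID. Shares and ratios were tested with exact permutation (scipy 1.17.1). A floor of 3 counts corresponded to 0.128 to 0.137 CPM.

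Alternatives were DESeq2 1.42.0, other normalizations and filters, the legacy fit, a test against a fold change of 1.5, a replicate block, leaving out each sample, and shares without exon length. Genes could be named if they were the 9 members, Tnfaip2, or genes of a list with a mean of at least 1 CPM in a genotype. For lists with more than 6 such genes, only the 4 with the largest absolute log2 fold change past the threshold were named, and any listed gene could be given by its counts where it had 3 or fewer in every sample. Not every gene that meets this rule is named or drawn. The 3 genes of nearest pattern were taken, by Euclidean distance of centred log2(CPM + 0.5) values over the 6 samples, for the members with the largest rise and fall among tested genes of at least 1 CPM. The members and the lists were chosen with earlier results of these data known.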

Additional observations from a re-analysis of the deposited data

How the results depend on the processing

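Of the 9 retinoic acid genes, 1 was higher and 4 were lower in every alternative but 1, edgeR's test of changes beyond 1.5-fold, which left 2 lower, Crabp1 and Crabp2, as Rara (log2 fold change -0.60, adjusted p = 0.719) and Rarg (-0.13, adjusted p = 1) lost their calls. Over all alternatives the log2 fold change ranged from 1.14 to 1.45 for Aldh1a2, from -1.84 to -1.67 for Crabp1 and from -2.18 to -2.02 for Crabp2. The same test gave 2798 genes in all in place of 12084, 1 higher and 1 lower for retinol uptake and storage, 0 higher for RXRs and Fabp5, and 0 higher and 1 lower for coregulators; a larger required change makes this test stricter by construction. With DESeq2, 1 gene of uptake and storage was lower and 2 of retinol interconversion were higher. Without a filter, 3 of uptake and storage, 3 of interconversion and 1 of the other retinaldehyde dehydrogenases were higher. More low genes are tested in that setting. With the stricter filter, 1 of uptake and storage and 0 of the CYP26 list were lower, as fewer genes are tested. Leaving out each sample gave 1 to 2 lower genes for uptake and storage (1 without Tnfaip2-/- replicate 1) and 1 to 2 for the CYP26 list (2 without Tnfaip2-/- replicate 2). The cause of the DESeq2 and single-sample differences was not tested. Without exon length, the difference in share (Tnfaip2-/- minus WT, percentage points) was 13 for Rxra, -2.53 for Rxrb and -10.4 for Rxrg, since the exon lengths differ. Replicate numbers did not pair the samples (correlations of -0.0218, -0.0252 and -0.0324 between same-numbered samples, none of which correlated best with its own number). In a paired design, where the replicate number was added as a block, 11841 genes passed, and 1 member was higher and 4 lower. Depth limits Rarb, the other CYP26 enzymes and the retinaldehyde dehydrogenases beside Aldh1a2, which have few counts.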
